A study of Drosophila melanogaster with 3 samples.

Results

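The 9 genes described here belong to the epidermal growth factor (EGF) receptor pathway of Drosophila melanogaster: the receptor gene Egfr, the ligand genes spi and vn, the protease genes rho and ru, the inhibitor genes aos and sty, and the nuclear factor genes pnt and aop. They were taken by name from 13945 protein-coding genes. A peak belonged to a gene when its summit lay in the gene body or within 5 kb of it, which placed 50 summits of the thresholded list (6578 peaks) and 181 of the pooled list (30000) at the 9 genes. The data are ChIP-seq peak lists of Squeeze (sqz), a Krüppel-type zinc finger factor, from 3 biological replicates of embryos aged 0 to 16 h of mixed sex. All libraries came from 1 transgenic line, named sqz-GFP, that stably carries sqz with GFP at its C-terminal end, and no second genotype, age or treatment was present. One label describes the libraries as input, while the antibody and assay labels name sqz and the file headers list a separate control, so the lists were read as ChIP. Whole embryos mix all tissues, and a peak does not show in which cells the factor was bound.

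In this pathway, membrane-bound Spi is cut by rhomboid proteases and the released ligand activates the receptor tyrosine kinase Egfr, which signals through Ras, Raf and the MAP kinase Rolled. The Ets activator Pnt and the Ets repressor Aop (Yan) are its nuclear output. Aos, a secreted protein that binds Spi, and Sty (Sprouty), an intracellular brake, are feedback inhibitors whose transcription the pathway can induce. In the embryo the pathway is known for patterning the ventral ectoderm and for its part in tracheal, muscle and glial development.

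All 9 genes had a thresholded summit, against 41.9% of all protein-coding genes. Longer windows can hold more peaks. Among the 3154 genes whose length lay between those of rho and pnt, the shortest and the longest of the 9, the share was 59.9%. That range ran from 5134 to 55937 bp, and genes within it were not matched to the 9 in length. A difference in length may therefore remain. The number of summits ran from 2 at rho to 12 at pnt, with a median of 5, against 1 for genes of that length range and 0 for all genes. Per 10 kb of window the median was 1.32, against 0.47 in that range. No test was made of these differences, because the genes were chosen with earlier results of the data known.

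**Figure D1:**
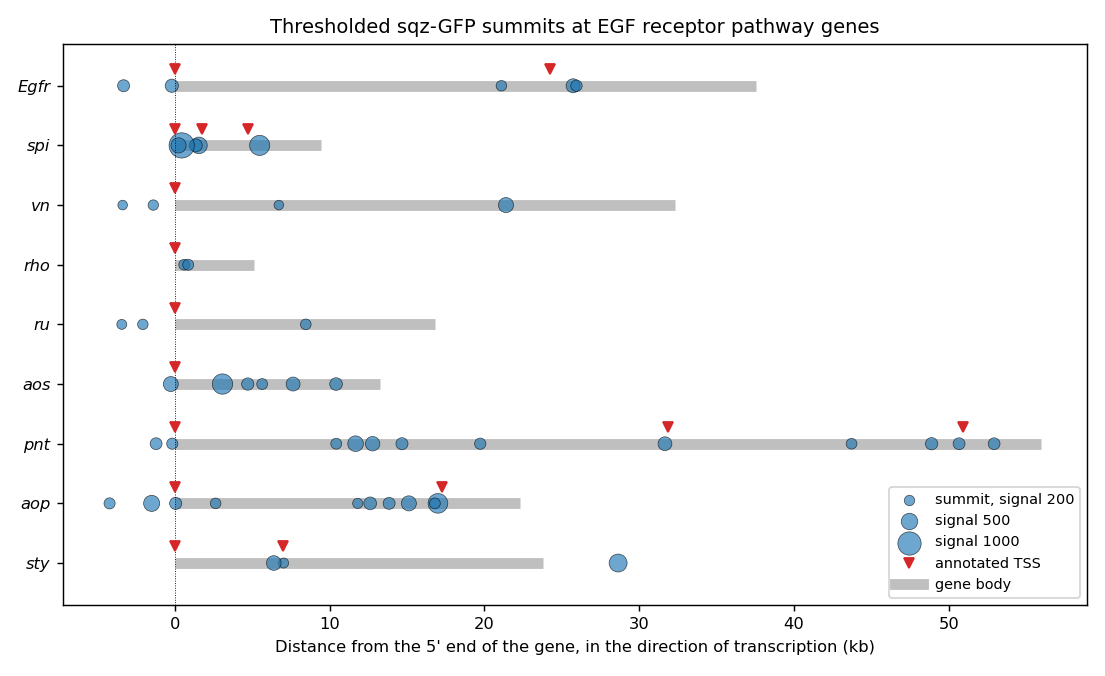
Positions of the 50 thresholded summits along the 9 genes, in kb from the 5' end of each gene in the direction of transcription. Circles are summits with an area proportional to the signal value, triangles are annotated start sites and grey bars are gene bodies. The largest circle, with a signal of 1174, lies near the start of spi, and the 12 summits of pnt are spread along the whole gene.

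The strength of a peak is given as its rank by the authors' signal value within a list, where 1 is the strongest. Summits at the 9 genes covered most of the range of the thresholded list. The strongest ranked 110, the weakest 6425, and the median was 3185.5, against 3289.5 for all thresholded summits. Of the 50, 27 were among the 3289 strongest peaks and 13 among the 1644 strongest. Of the pooled peaks at the genes 27.6% were thresholded (95% Wilson interval 21.6 to 34.6, counting error only), against 21.9% of all pooled peaks, a value inside that interval.

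DNA at the strongest summit of 8 of the genes is shown, because the ranks compared between genes below were taken at these places. Each run, from the RefSeq genome of Release 6, holds 201 bases of the dm6 plus strand centred on the summit. Capitals mark any match to 6 words searched on both strands, so that a word may stand as its reverse complement. They are the GAGA repeat GAGAG, the word CAGGTA of the type bound by Zelda, the Ets-type word CCGGAA, the A run AAAAAAA, the word TATCGATA of the type bound by DREF, and the E-box CACGTG. Overlapping matches run together in capitals.
spi, chr2L:19576768-19576968: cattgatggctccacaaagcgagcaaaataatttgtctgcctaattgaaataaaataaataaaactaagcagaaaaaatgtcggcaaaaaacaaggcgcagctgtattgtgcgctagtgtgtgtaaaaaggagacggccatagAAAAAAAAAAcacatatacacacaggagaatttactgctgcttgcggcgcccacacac
vn, chr3L:5824174-5824374: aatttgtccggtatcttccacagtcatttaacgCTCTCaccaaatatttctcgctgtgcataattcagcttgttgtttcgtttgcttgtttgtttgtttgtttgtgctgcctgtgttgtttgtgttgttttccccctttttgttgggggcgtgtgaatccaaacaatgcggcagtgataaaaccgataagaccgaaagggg
rho, chr3L:1464575-1464775: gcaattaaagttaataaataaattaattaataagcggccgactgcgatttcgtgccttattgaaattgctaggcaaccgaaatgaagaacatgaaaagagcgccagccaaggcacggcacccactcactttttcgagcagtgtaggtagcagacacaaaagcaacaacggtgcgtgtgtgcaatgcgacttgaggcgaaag
ru, chr3L:1378988-1379188: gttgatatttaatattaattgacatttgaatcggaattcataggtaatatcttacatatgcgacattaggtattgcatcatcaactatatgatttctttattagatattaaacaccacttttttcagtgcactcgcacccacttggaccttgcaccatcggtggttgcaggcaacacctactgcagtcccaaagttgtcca
aos, chr3L:16480470-16480670: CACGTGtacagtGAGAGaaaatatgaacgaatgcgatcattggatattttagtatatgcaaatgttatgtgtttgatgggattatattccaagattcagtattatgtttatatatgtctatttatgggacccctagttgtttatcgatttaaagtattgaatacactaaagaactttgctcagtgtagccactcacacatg
pnt, chr3R:23334389-23334589: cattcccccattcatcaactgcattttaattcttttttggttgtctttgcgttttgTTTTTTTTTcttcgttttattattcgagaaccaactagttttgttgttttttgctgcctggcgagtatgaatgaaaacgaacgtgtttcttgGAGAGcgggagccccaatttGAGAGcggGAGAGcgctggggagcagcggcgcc
aop, chr2L:2161657-2161857: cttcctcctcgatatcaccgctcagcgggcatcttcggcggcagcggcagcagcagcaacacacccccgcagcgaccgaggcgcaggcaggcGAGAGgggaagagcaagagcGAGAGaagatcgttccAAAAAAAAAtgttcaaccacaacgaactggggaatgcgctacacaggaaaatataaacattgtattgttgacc
sty, chr3L:3396202-3396402: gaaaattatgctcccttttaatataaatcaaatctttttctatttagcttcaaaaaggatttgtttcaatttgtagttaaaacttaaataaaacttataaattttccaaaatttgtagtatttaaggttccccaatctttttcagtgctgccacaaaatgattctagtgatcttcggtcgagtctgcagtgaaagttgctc

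Runs of A or T and GAGA repeats were the words most often met in these windows. Of the 8 windows, aop and pnt held both, spi held an A run, and vn and aos held a GAGA word. The aos window also held CACGTG. The windows of rho, ru and sty held none of the 6 words. Over all 50 summits, AAAAAAA was present in 60.0% of windows, against 55.6% of all thresholded windows and 38.2% of the 23422 other pooled windows. GAGAG was present in 42.0%, against 31.2% and 25.4%. It was found at 7 of the 12 pnt summits, at 4 of the 6 aos summits and at 4 of the 10 aop summits.

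CAGGTA was met at 5 summits (10%, against 4.13% of thresholded windows), of which vn had 2 and Egfr, aos and pnt had 1 each. CACGTG was met at 3 (6.0%, against 2.57%), with 2 at pnt and 1 at aos. The Ets-type word CCGGAA, a form of the core that Pnt and Aop bind, was met at 2 (4.0%, against 4.32%), with 1 each at pnt and aop. TATCGATA was met at 0 of 50, which allows a share of up to 6.0%, against 1.92%. Within 50 bp of the summit, CAGGTA was met at 1 of 50, against 1.99% of thresholded windows of that length, and CACGTG at 0, against 1.23%. A match describes letters and not a bound site, and the differences were not tested. The median GC content was 40.3% in windows at the 9 genes and 39.8% in all thresholded windows.

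The receptor gene Egfr (FBgn0003731, dm6 2R, 21522420 to 21559977, plus strand) had 5 thresholded summits among 22 pooled peaks, or 1.05 per 10 kb, above 80.6% of protein-coding genes. Its strongest summit, at 21548144 in an intron, lay 1501 bp downstream of the second of its 2 start sites and ranked 1875 in the pooled list. It ranked 1663, 1600 and 3650 in replicates 1, 2 and 3, so it was weakest in replicate 3. A summit of rank 2321 lay 192 bp upstream of the first start site, and ranked 3424, 1863 and 3216 in the 3 libraries. Of the other summits, 1 lay in the promoter of the neighbour CG10494, 9 bp from its start site, and 1 in an Egfr intron lay nearer to the start site of CG30283, a gene inside Egfr on the opposite strand. Replicates 1, 2 and 3 had 5, 6 and 4 peaks at Egfr among their 6578 strongest.

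The main ligand gene carried the strongest peak of the 9 genes. The gene spi (FBgn0005672, 2L, 19567900 to 19577315, minus strand) encodes a ligand of the TGF-alpha type. It had 5 thresholded summits among 10 pooled peaks, all in the gene body, and its 2.58 summits per 10 kb were above 95.3% of genes. The strongest, at 19576868, lay 447 bp downstream of the first start site, with a signal of 1174 and a pooled rank of 110. It ranked 349, 51 and 137 in replicates 1, 2 and 3, within the strongest peaks of each list and highest in replicate 2. A summit in an intron at 19571833, 777 bp downstream of the third start site, ranked 388 in the pooled list and 1131, 401 and 211 in the libraries. Of the 3 start sites of spi, 2 had a summit within 500 bp. Neighbouring summits lay close, and counting those under 500 bp apart as 1 left 3 at spi.

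The second ligand gene, vn (FBgn0003984, 3L, 5813338 to 5845664, minus strand), encodes a secreted neuregulin-like ligand with weaker activity than Spi. Its 4 thresholded summits among 21 pooled peaks came to 0.95 per 10 kb, above 79.1% of genes. The strongest, in an intron at 5824274, ranked 1379 in the pooled list and 1475, 1175 and 2245 in replicates 1, 2 and 3. Its nearest start site was that of mad2, at 11181 bp. The remaining 3 summits were near the weak end of the list, at ranks 5024, 6304 and 6425. The single start site of vn had no summit within 500 bp, and the closest was 1387 bp upstream.

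Compared by the strongest summit of each gene, the protease genes ranked lowest of the 9. The gene rho (FBgn0004635, 3L, 1463811 to 1468944, plus strand) encodes the rhomboid protease that releases Spi in many tissues and is itself switched on where the pathway is to act. Its 2 thresholded summits, among 4 pooled peaks, lay in an intron, 610 and 864 bp downstream of the start site. They counted as 1 when summits under 500 bp apart were merged. The stronger, at 1464675, ranked 4294 in the pooled list and 9376, 2970 and 4587 in replicates 1, 2 and 3, so it was outside the 6578 strongest peaks of replicate 1. The other ranked 4542 in the pooled list and 3778 and 2713 in replicates 1 and 2, and had no summit within 100 bp in replicate 3. No summit of rho was met among the strongest peaks of all 3 libraries.

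The gene ru (FBgn0003295, 3L, 1370628 to 1387437, plus strand) encodes rhomboid-3, a protease of the same family known from the eye. It had 3 thresholded summits among 15 pooled peaks. The strongest, at 1379088 in an intron, ranked 4681 in the pooled list and 4091, 10335 and 4736 in replicates 1, 2 and 3, which placed it outside the strongest peaks of replicate 2. The other 2 lay 2062 and 3423 bp upstream of the gene, at ranks 4955 and 5688. Both rho and ru lie inside Ptp61F (3L, 1342493 to 1475257, minus strand), a tyrosine phosphatase gene on the opposite strand. All 5 of their summits were therefore in Ptp61F, and the lists cannot tell which gene a peak concerns.

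The inhibitor gene aos (FBgn0004569, 3L, 16470386 to 16483650, minus strand) had 6 thresholded summits among 17 pooled peaks, or 2.58 per 10 kb, above 95.3% of genes. Its strongest summit lay in an intron at 16480570, 3080 bp downstream of the start site, and ranked 359 in the pooled list. It ranked 307, 410 and 501 in replicates 1, 2 and 3, the smallest SD in ranks of the 9 genes (97). Relative to the mean rank, the spread was smaller at sty (117 around 714) than at aos (97 around 406). A summit 255 bp upstream of the aos start site ranked 1453 in the pooled list and 775, 1532 and 3163 in the libraries. The remaining 4 were intronic, at ranks 1886 to 4429. Of the 6 summits, 5 were met among the strongest peaks of all 3 libraries. The whole gene lies inside CG33158, on the opposite strand, so 5 of the 6 summits were in both genes and the one upstream of aos was in CG33158 alone.

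The second inhibitor gene, sty (FBgn0014388, 3L, 3401153 to 3424935, minus strand), had 3 thresholded summits among 24 pooled peaks, the lowest density of the 9, at 0.89 per 10 kb. The strongest ranked 665 in the pooled list and 584, 812 and 747 in the libraries. However, it lay in intergenic sequence, 4851 bp beyond the 3' end of the gene. The nearest start site, that of Ids, was 18034 bp away. This sty summit was the one closest to the inner edge of the 5 kb limit. Just outside that limit, the nearest summits were also beyond sty, at 6147 and 6433 bp, with ranks of 3366 and 875. Within the gene, a summit at 3418541 ranked 1582 in the pooled list and 1032, 1518 and 2813 in the libraries. It lay 580 bp upstream of the second start site of sty, which had a weaker summit of rank 5599 at 55 bp.

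The activator gene pnt (FBgn0003118, 3R, 23290231 to 23346167, minus strand) had the most summits, 12 among 41 pooled peaks, more than 99.6% of genes. It is also the longest of the 9, and its 1.82 summits per 10 kb were above 90.2% of genes. Each of its 3 start sites had a summit within 500 bp upstream, at 161, 193 and 276 bp and at ranks 4055, 1955 and 3373. The strongest summits were intronic, 11678 and 12777 bp downstream of the first start site. The one at 23334489 ranked 1200 in the pooled list and 3260, 1155 and 872 in replicates 1, 2 and 3, so it was weakest in replicate 1. The one at 23333390 ranked 1679, and 2999, 1077 and 2133 in the libraries. Of the 12 summits, 10 were met among the strongest peaks of all 3 libraries. The most upstream, 1206 bp outside pnt, was nearest to the start site of PolE1, which encodes a DNA polymerase subunit.

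The repressor gene aop (FBgn0000097, 2L, 2156484 to 2178754, minus strand) had the densest peaks of the 9, with 10 summits among 27 pooled peaks and 3.1 per 10 kb, above 97.5% of genes. Its strongest summit, at 2161757, lay 230 bp upstream of the second of its 2 start sites and ranked 433 in the pooled list. It ranked 642, 336 and 560 in replicates 1, 2 and 3. The first start site had a summit at 58 bp, of rank 3096. Upstream of the gene, a summit at 1493 bp ranked 1072 in the pooled list and 694, 2505 and 901 in the libraries. Between the start sites lay 5 intronic summits, of which 1 at 2163636 ranked 1387 and 1235, 1797 and 1443 in the libraries. In replicate 1, 3 of the 10 summits had no peak within 100 bp, against 0 in replicates 2 and 3.

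**Figure D2:**
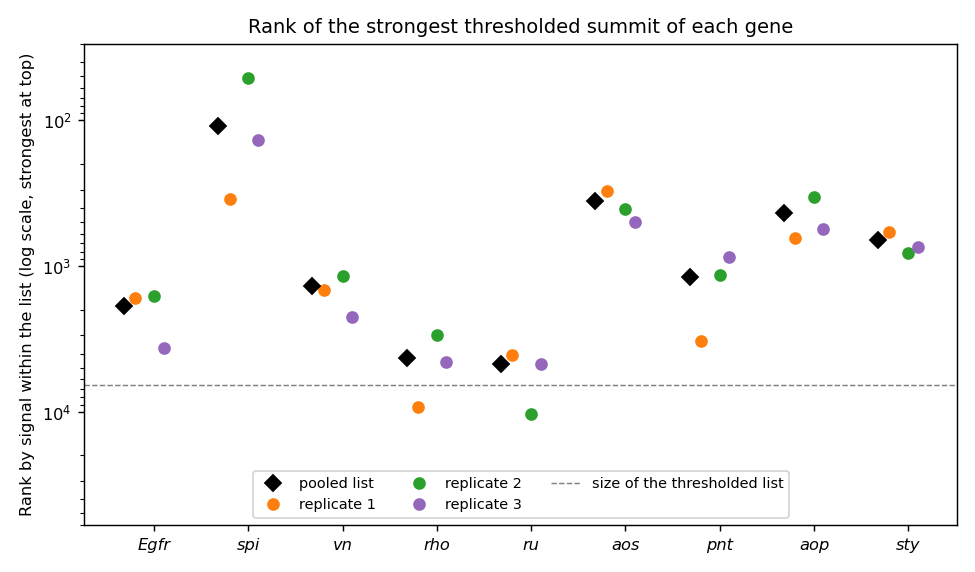
Rank of the strongest thresholded summit of each gene in the pooled list (diamonds) and in the lists of the 3 replicates (circles), on a log scale with the strongest at the top. The dashed line marks rank 6578. The circles of spi, aos, aop and sty lie between ranks 51 and 812, and only rho and ru have a circle below the line. Circles are library peaks matched to the pooled summit, which at sty lies 4851 bp outside the gene. Other peaks at rho and ru ranked above the line in those libraries.

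Ordered by the mean rank of the strongest summit over the 3 libraries, the genes ran spi, aos, aop, sty, vn, pnt, Egfr, rho and ru. The means were 179 ± 153, 406 ± 97, 513 ± 158 and 714 ± 117 for spi, aos, aop and sty. They were 1632 ± 552, 1762 ± 1305 and 2304 ± 1166 for vn, pnt and Egfr, and 5644 ± 3331 and 6387 ± 3434 for rho and ru (SD, n = 3 each). Neighbours in this order overlapped in their 3 library ranks, except sty and vn: the first 4 genes spanned ranks 51 to 812, and vn, pnt and Egfr spanned 872 to 3650. The place of sty, and this gap, rested on an intergenic summit 4851 bp outside sty. Its nearest start site was that of Ids, 18034 bp away. The strongest summit inside sty ranked 1032, 1518 and 2813 in the libraries, which overlapped the ranks of vn. The ranks of rho overlapped those of Egfr, and those of ru overlapped those of rho but not those of Egfr.

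**Figure D3:**
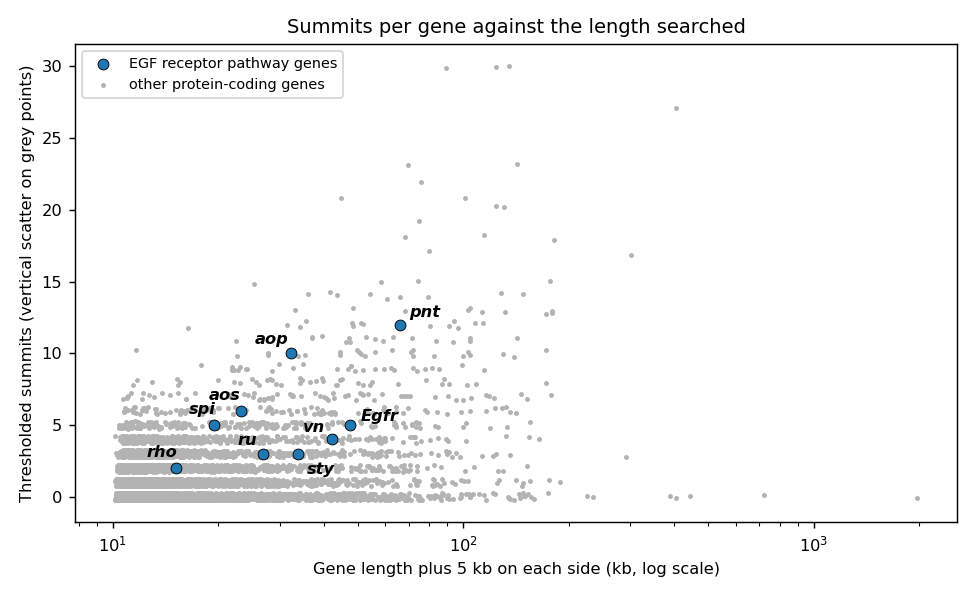
Number of thresholded summits of each protein-coding gene against the length searched, which is the gene plus 5 kb on each side (log scale). Blue points are the 9 genes and grey points the others, with a small vertical scatter. The points of aop and pnt, with 10 and 12 summits, lie highest among the 9.

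By annotation, the summits were mostly intronic. Of the 50, 30 were in introns (60.0%, 46.2 to 72.4), 14 within 500 bp of a start site (28.0%, 17.5 to 41.7) and 6 in intergenic sequence (12.0%, 5.62 to 23.8). Over all thresholded summits the shares were 41.9%, 37.9% and 18.2%. Introns of any protein-coding gene counted, and 2 of the 30 lay upstream of ru, inside Ptp61F alone. The classes of untranslated and coding exons held 0 of 50, which allows up to 6.0% for each class. Exons within 500 bp of a start site are not in these classes, since summits there counted as TSS-proximal. Because the summits were taken for lying in or near long genes, their annotation is not independent of how they were chosen. The 4 TSS-proximal summits of spi made up the largest such group, while vn, rho and ru had 0.

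Of the 16 annotated start sites of the 9 genes, 10 had a thresholded summit within 500 bp (62.5%, 38.6 to 81.5), against 16.8% of the 19252 start sites of protein-coding genes. The start sites of aos, pnt and aop were all marked. Those of vn, rho and ru were not, nor was 1 start site each of Egfr, spi and sty. Start sites of 1 gene share a locus, the genes were chosen by name, and the difference was not tested.

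**Figure D4:**
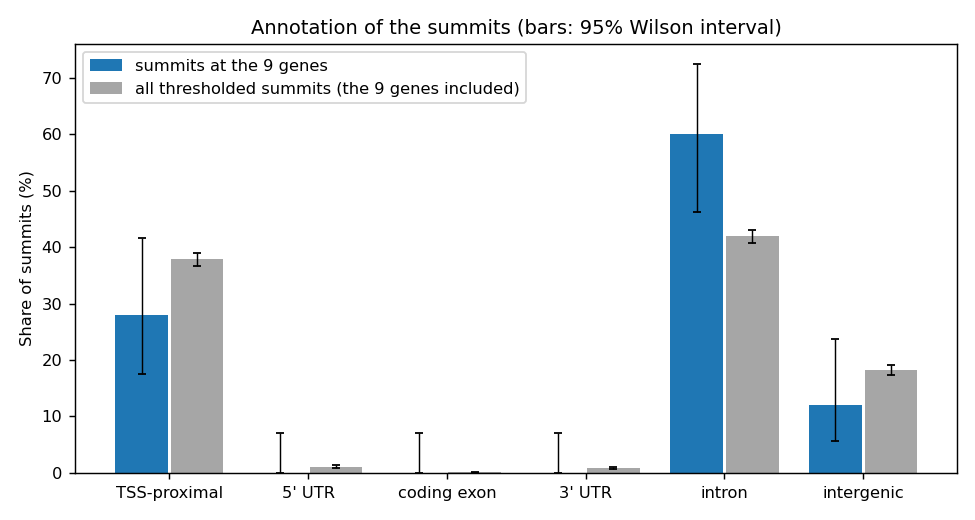
Share of summits in each annotation class for the 50 summits at the 9 genes (blue) and for all 6578 thresholded summits (grey). Bars show percentages with 95% Wilson intervals, which cover counting error only. Introns held 60.0% of the summits at the 9 genes and 41.9% of all summits.

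A peak among the 6578 strongest of a library lay within 100 bp of 35, 45 and 43 of the 50 summits in replicates 1, 2 and 3. The mean share was 82.0% ± 10.6, against 76.0% ± 6.78 for all thresholded summits (SD, n = 3 libraries). In all, 46 of the 50 were met in 2 or more libraries (92.0%), against 81.4% of the whole list. In all 3 libraries 29 were met (58.0%, 44.2 to 70.6), against 48.6% of the whole list. The genes were uneven in this: 10 of 12 at pnt, 5 of 6 at aos, 2 of 3 at sty and 3 of 5 at spi. At aop it was 5 of 10, at Egfr 2 of 5, at ru 1 of 3, at vn 1 of 4 and at rho 0 of 2. The 2 met in none were a vn summit at rank 6425 and an aop summit at rank 4438, a neighbour of the strongest aop peak.

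With the full list of 30000 peaks per library, 47, 50 and 48 of the 50 were met. Of the 50, 45 were met in all 3 (90.0%, 78.6 to 95.7), against 81.8% of all thresholded summits. Spearman's rho of the ranks over the shared summits at the 9 genes was 0.52 between replicates 1 and 2 (47 summits), 0.60 between 1 and 3 (45) and 0.70 between 2 and 3 (48). The values over the whole list were 0.58, 0.59 and 0.73. These correlations are across sites of the same libraries, which share 1 control. The median distance between a matched library summit and the pooled one was 19, 14 and 25 bp in replicates 1, 2 and 3, against 17, 9 and 13 bp over the whole list. The thresholded list was made from these libraries, so its support in them is a description.

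Below the authors' threshold, each gene had further pooled peaks, from 2 at rho to 29 at pnt. Of these the strongest at vn ranked 6639 and the strongest at aop 6691, just outside the list. At rho, ru and aos the next peak ranked 10538, 11740 and 12746. The count of all peaks of a library at a gene was 46.0 ± 4.36 at pnt, 27.3 ± 2.52 at aop, 22.7 ± 1.53 at Egfr and 10.7 ± 3.21 at spi (SD, n = 3). The largest relative spread was at spi, which had 12, 13 and 7 peaks in replicates 1, 2 and 3.

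Of 27 other listed genes of the pathway, 20 had a thresholded summit (74.1%), against 41.9% of all protein-coding genes and 47.6% of genes within the length range of the list. Their median was 2 summits. Of the 27, 18 had a summit for which their own start site was the nearest, against 20.3% of all protein-coding genes. By role, 6 of 8 genes for ligands, their trafficking or rhomboid family proteins had a summit. So did 8 of 11 for transduction and 6 of 8 for brakes and nuclear factors. The rhomboid genes were taken as a family, and a part of each in the pathway was not checked. Those without one were grk, which encodes the oocyte ligand Gurken, and rho-5, rl, ksr, Sos, Cbl and kek1.

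The kinase gene Raf (X) stood highest, with 15 summits among 41 pooled peaks. Of the 15, 10 had a start site of Raf as the nearest. The strongest at Raf, in an intron at 2304133, had a signal of 1651.3. It ranked 38 in the pooled list and 59, 36 and 29 in replicates 1, 2 and 3. The phosphatase gene csw had a summit 73 bp from its start site at rank 231, and cic, which encodes a repressor that the pathway relieves, had one 6 bp from a start site at rank 375. An intronic summit of edl, whose product antagonises Aop, ranked 404, and a summit 660 bp from the start site of RasGAP1 ranked 493. The strongest summits at the adaptor or scaffold genes Shc (rank 157), cnk (175) and drk (505) were in promoters of the neighbours aay, l(2)k01209 and bbc. The ligand gene Krn (691) and S (620), which encodes the Spi trafficking factor Star, had their strongest summit in an intron.

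As the member with most summits, pnt was set beside all 5842 genes with a thresholded summit by distance over 4 standardised measures: log2 number of summits, log2 window length, log10 rank of the strongest summit and share of summits near a start site. The closest genes were pigs (distance 0.213), Bicra (0.454) and Pdp1 (0.46). They had 11, 10 and 14 summits, with strongest ranks of 1020, 1384 and 737, against 12 and 1200 for pnt. The measures come from 1 set of lists.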

How the data were processed

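The 3 libraries formed 1 group of biological replicates, numbered by the labels, with fragments of 200 to 800 bp per the labels. Per the file headers, peaks were called on dm6 in each library and in all 3 together, each against 1 shared control, and a thresholded list was derived by the irreproducible discovery rate. For the aligner, the caller, their versions and the threshold, nothing is given in the sources used here. As deposited, the signal value carries no scale and served to rank peaks. The -log10 q value deposited beside it stood at its ceiling in 61.4% of thresholded peaks and was not used for ranks. All 6578 thresholded peaks were the strongest pooled peaks, in the same order. The lists hold no read counts, so depth is unknown, and intervals cover counting error only.

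Summits (start plus offset, counted from 1) were joined to protein-coding genes of Ensembl release 115 (BDGP 6.54), and all 36 pathway genes overlapped their RefSeq entries of the same assembly, Release 6. Sequences came from that RefSeq genome. Annotation went by the first class met, TSS-proximal (500 bp) before exon classes, these before intron, and intergenic last. A library summit within 100 bp counted as a match, and the strongest such summit gave the rank. Correlations and offsets used the nearest one. A limit for 0 is 3 counts of the total. Work was done in Python 3.11.15 with pandas 2.3.3 and scipy 1.17.1, and counting was checked on planted summits.

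The members, lists and words were chosen with earlier results of these data known, so no test was made. Named genes were all members, the 8 other pathway genes with the strongest summit, genes with the start site nearest to a member summit, and the 3 genes most like pnt. Krn, S and the pathway genes without a summit were named after their values were seen. Alternatives covered flank, peak set, match distance, summit merging, nearest gene, TSS window, word window and leaving out each library.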

Additional observations from a re-analysis of the deposited data

How the results depend on the processing

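Of 50 alternative values for 15 measures, 39 stayed close to the reported one and 11 moved. All 9 genes kept a thresholded summit in the gene body alone, where 14.1% of all genes had one, with flanks of 1 or 10 kb (25.9% and 55.6% of all genes), with close summits merged, and when only summits nearest to the gene's own start site were counted (20.3%). Among the 3289 strongest peaks 7 genes had one (rho and ru did not), against 30.6% of all genes. Among peaks met in all 3 libraries 8 did, all but rho, against 29.4%. The 50 summits became 27 among the 3289 strongest and 29 among those met in all 3 libraries, sets that hold fewer peaks by construction. When a summit had to be met in the other 2 libraries, leaving out each replicate in turn, the count ran from 32 to 40, with 40 without replicate 1 and 32 without replicate 2 or 3. The genes with a summit then ran from 8 to 9, and rho had 0 without replicate 2. The other pathway genes with a summit ran from 16 to 18, against 20 in the whole list. Of all genes 33.9%, 32.0% and 32.5% had one without replicates 1, 2 and 3, against 41.9% in the whole list. The mean library support of 82.0% was 68.7% with a match distance of 50 bp and 96.7% with full lists, and ran from 78.0% to 88.0% without 1 replicate. With words sought within 50 bp of the summit, GAGAG was met at 13 of the 50 summits, CAGGTA at 1, CCGGAA at 1 and CACGTG at 0. The shares of all thresholded windows were then 17.2%, 1.99%, 2.33% and 1.23%, so CAGGTA, met at 5 of 50 against 4.13% with the longer window, no longer stood above the whole list. The background for the other pathway genes was 47.6% in the 8318 genes within the length range of the list, against 41.9% of all 13945. Ranking by the other score columns was not run, since 1 is constant and the other has a ceiling. No paired analysis was possible because there is 1 group. The lists give no depth, so peaks missing from a library cannot be told apart from peaks too shallow to be listed.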
